A study of Drosophila melanogaster with 4 samples.

Results

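The fly gene bru1 (also called arrest or aret, RefSeq gene 34648) was described here through the transcripts that long-read sequencing of testes placed over it. Members were all plus-strand transcripts with an exon in the Release 6 span of the gene, 2L:12175004-12313438, which is 138435 bp long. This rule gave 28 of the 40180 transcripts in the catalogue. Of these, 25 were bru1 isoforms, and 3 ended in CG31759, a gene nested in a bru1 intron. The gene was chosen on measured values of this same catalogue, its many isoforms from internal first exons, so that its isoform number and starts are given as a description without any test. The edges of the rule were clear of other transcripts. The nearest plus-strand transcript outside, of crok, ended 913 bp before the span, and the next one on the far side began 5972 bp after it. The outermost member began 25 bp 5' of the span, and the farthest 3' end lay 636 bp inside it.

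Bruno 1, the protein of bru1, belongs to the CELF family of RNA-binding proteins, which bind RNA through RNA recognition motifs. In the ovary it is known for holding oskar mRNA silent until the message reaches the posterior pole of the oocyte. Loss of the gene arrests the germline in both sexes, and in flight muscle the protein directs alternative splicing. Proteins of the CELF family act on translation, splicing and mRNA turnover.

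The RNA came from whole testes of males 0 to 2 days old, 150 pairs of testes per sample. It was sequenced by PacBio Iso-Seq, which is meant to read a polyadenylated transcript as a full-length cDNA. Whether each listed start and 3' end is that of a whole transcript was not tested. The 2 control samples carried the bamGAL4 driver alone, and the 2 knockdown samples carried bamGAL4 with the RNAi construct KmgRNAi. That driver is active in spermatogonia, so the knockdown is aimed at the germline rather than at every cell of the testis, and all 4 samples shared the driver. In all 4, eggs were laid over 3 days at 25 °C and the progeny were then kept at 29 °C. The deposited catalogue merges the samples. It has 0 lines that name a sample and holds no read number. The values below are therefore those of all 4 samples pooled, depth is unknown, and no replicate spread can be given. The comparison of control and knockdown could not be made for bru1.

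Whole testes hold germline, cyst, pigment and muscle cells. Of the germline marker genes 12 of 12 were named in the catalogue, of testis soma 4 of 4, of muscle sheath 8 of 10 (the others, Tm1 and sls, were overlapped by 18 and 3 transcripts of either strand), of accessory gland 2 of 4 and of ovary 0 of 5. Since bru1 also acts in muscle, the cell type that gave each isoform was not tested.

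The bru1 isoforms began at 3 separate places, called distal, middle and proximal here, with starts no more than 100 bp apart joined into 1 group. The distal start held 2 isoforms, the middle start 21 and the proximal start 2. Thus the outer annotated end of bru1 was the start of few listed isoforms, and most began over 30 kb inside the gene. RefSeq counts 11 transcripts for bru1, but only the gene span was at hand. Whether the middle or proximal start is itself annotated was therefore not tested. Both distal isoforms began at 12174979. The middle starts lay between 12205800 and 12205928, or 30796 to 30924 bp inside the RefSeq span. The proximal starts lay at 12309347 and 12309386, which is 134343 and 134382 bp inside it. Catalogue numbers of the isoforms rose with start position. None was listed between 65, the last of the middle group, and 108, the first proximal one. Whether filtering removed transcripts that began between these groups was not tested.

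**Figure D1:**
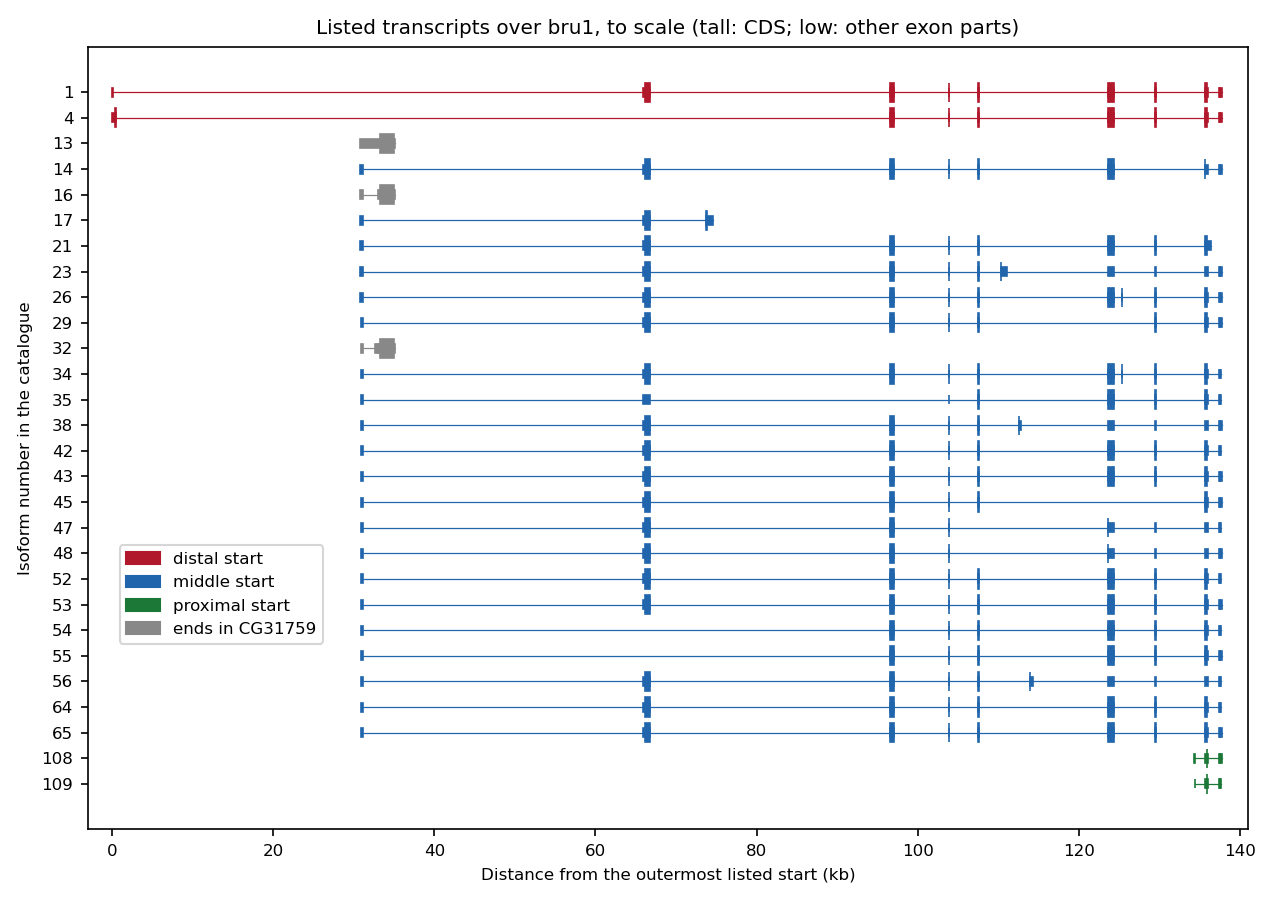
Each line is 1 of the 28 transcripts over bru1, with the distance from the outermost listed start in kb on the x axis, CDS as tall boxes and other exon parts as low boxes (the narrowest exons are drawn with a minimum line width). The 2 distal isoforms cross the whole gene, 21 begin at the middle start, 2 proximal isoforms lie at the 3' end, and 3 grey transcripts end in CG31759.

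Within the middle group, 10 isoforms began at the same base, 12205830. The others of this group used 9 further positions. A gap of 89 bp divided the group into 19 isoforms whose starts spread over 34 bp and 2 isoforms, 64 and 65, that began at 12205923 and 12205928. All 21 ended their first exon at the same splice donor, 12206130. These first exons therefore differed in length alone, from 331 nt down to 203 nt, and none held coding sequence (CDS).

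The 2 distal isoforms shared their start but left the first exon at donors 303 bp apart. Isoform 1 (numbers are those of the catalogue) used the donor at 12175117, which made a first exon of 139 nt, and spliced over 65750 bp to the exon at 12240868. From there on it matched the commonest structure of the middle group. Isoform 4 used the donor at 12175420, which made a first exon of 442 nt, and spliced over 96170 bp to the exon at 12271591. It was the 1 bru1 isoform whose CDS began in its first exon, at 12175311.

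The proximal isoforms, 108 and 109, each had 4 exons. Their first exons, of 125 and 86 nt, lay inside the intron between 12304595 and 12310682 and ended at a donor that no other bru1 isoform used, 12309471. From it they joined the exon at 12310682, which all isoforms that reach the 3' part of the gene contained. Their CDS was 75 nt long, or 25 codons, and in frame with the last codons of the longer isoforms. These transcripts carry the 3' untranslated part of bru1 with little of its coding part.

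The 25 isoforms were built from 19 exon blocks, numbered E1 to E19 from 5' to 3', joined by 30 distinct introns. All 25 were spliced, all 25 had a CDS, and they ran from 730 to 4200 nt with a median of 3310 nt. They fell into 17 intron chains. The commonest chain, in isoforms 42, 43, 64 and 65, had 11 introns and the blocks E2, E3, E5, E6, E7, E11, E12, E13, E15, E17, E18 and E19. Among isoforms that span each block, E6 was in 22 of 22, E17 in 24 of 24, and E18 and E19 each in 23 of 23. Every other internal exon was skipped by at least 1 isoform that spans it.

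**Figure D2:**
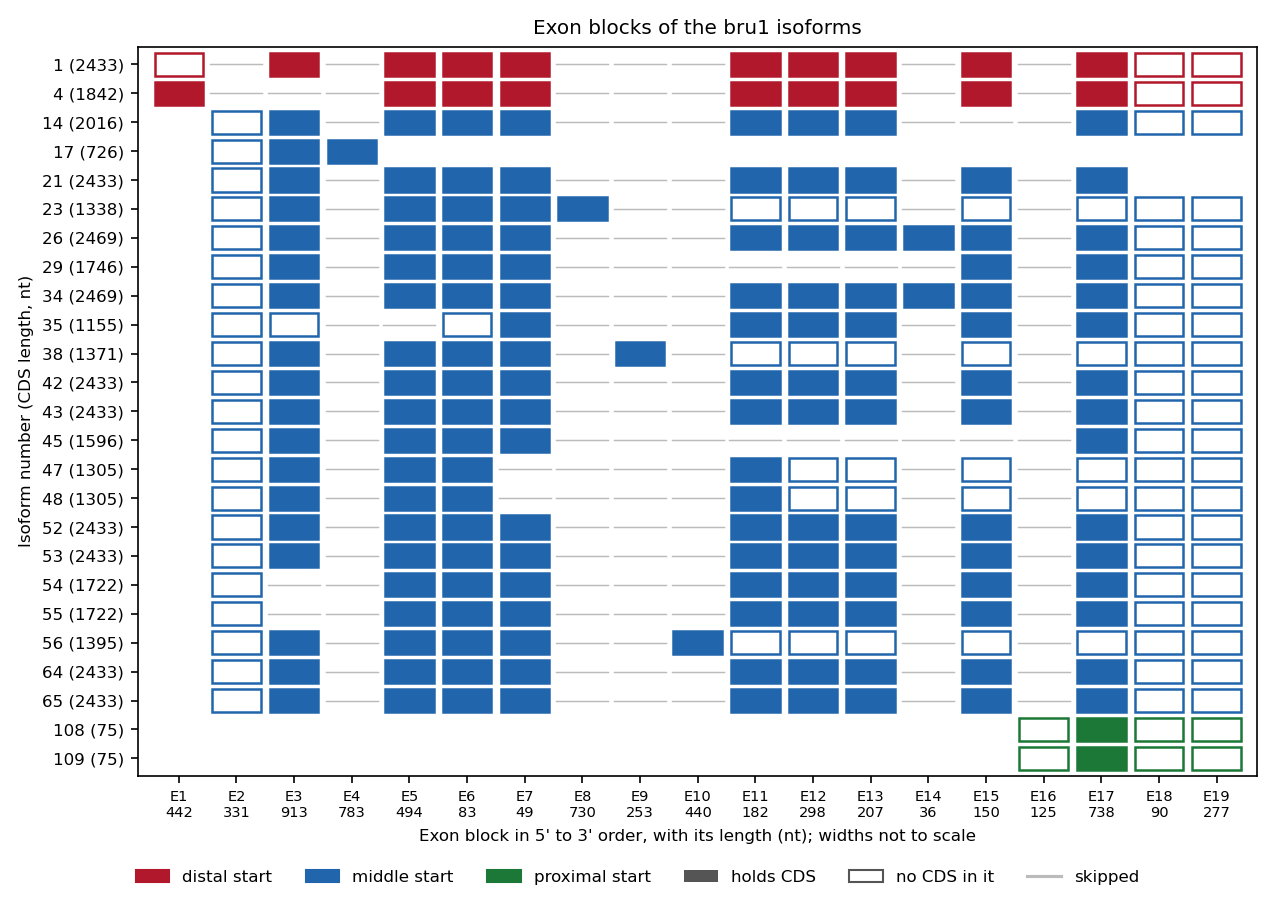
Rows are the 25 bru1 isoforms with their CDS length in nt, and columns are the 19 exon blocks in order with their length in nt (not to scale). Filled boxes hold CDS, open boxes do not, and grey lines mark blocks that the isoform skips. Blocks E8, E9 and E10 are each in 1 isoform, and all boxes 3' of them in those rows are open.

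The commonest CDS ran from 12241080 in E3 to 12310950 in E17. It was 2433 nt long, or 811 codons, and 8 isoforms held it. In all, 14 CDS versions were listed, of which 9 were in 1 isoform each. The CDS start at 12241080 was shared by 19 isoforms, and the CDS end at 12310950 by 18. Among the isoforms with the commonest CDS were isoform 1 from the distal start and 7 from the middle start. The distal and middle starts can thus lead to the same listed CDS. CDS lengths in the catalogue are all multiples of 3.

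Whether the last codon of a CDS is its stop is not given in the catalogue, and 1 bru1 isoform bears on it. In isoform 14 the CDS ended at 12310683, yet 7 other versions, in 16 isoforms, read on in the same frame through the next codon. That next codon is thus no stop in the listed frame. If the listed CDS of this isoform ends with a stop, that stop lies within it, and whether it does was not examined. Over the catalogue, 3 of 19904 CDS versions had a next codon that another version read in frame. The 19904 include versions whose next codon no other CDS covers, so this share cannot tell where the stop lies in the rest. In 1 of these 3 the last codon was read in frame as well, so that neither codon is a stop there. Codon numbers are the CDS length divided by 3, taken to include the stop.

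The 5' end of the CDS differed in isoforms without E3 and in isoform 35, which lacked E5. Isoforms 54 and 55 skipped E3, the exon of 913 nt that holds the usual CDS start, and spliced over 65460 bp from E2 to E5. Their CDS began at 12271601, was 1722 nt long (574 codons), and lost 237 codons of the commonest CDS while it kept the same stop. Isoform 4, from the distal start, also lacked E3. It had 110 nt of CDS of its own in E1, in frame with the rest, and a CDS of 1842 nt (614 codons). The listed CDS therefore had 3 forms of 5' end that read into E5 in frame, from E3, from E1 and from within E5. No start codon was examined and no protein was measured.

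The E3 exon also had an alternative acceptor. In 18 isoforms it began at 12240868 and in isoforms 52 and 53 at 12240879, a shift of 11 nt. The shift lay before the CDS start and shortened the 5' untranslated region from 513 to 502 nt without a change to the CDS. Isoform 35 skipped E5 (494 nt) and spliced over 37056 bp from E3 to E6. Its listed CDS began at the first base of E7, 12282514, and was 1155 nt long (385 codons) after a 5' untranslated region of 1305 nt. Isoform 35 still held all of E3, so the usual CDS start at 12241080 lay within that listed untranslated region. The length of E5 is not a multiple of 3, and no CDS from the usual start was listed for isoform 35. Which start is used was not tested.

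The exon E7, of 49 nt, was in 20 of the 22 isoforms that span it. Since 49 is not a multiple of 3, its loss changed the frame. In isoforms 47 and 48, which skipped it, the CDS ended in E11 at 12298594, after 27 nt of E11 read out of the usual frame. It was 1305 nt long and lost 385 codons of the commonest CDS.

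Between E7 and E11 lay an intron of 16005 bp, and 3 isoforms each held a different extra exon in it. Isoform 23 held E8 (12285294 to 12286023, 730 nt), isoform 38 held E9 (12287556 to 12287808, 253 nt) and isoform 56 held E10 (12288905 to 12289344, 440 nt). In none of the 3 did the CDS leave the extra exon. It ended after 11 nt in E8, 44 nt in E9 and 68 nt in E10, with a CDS of 1338, 1371 and 1395 nt. All 3 started at the middle start and went on through E11 to the last exon. Each lost the same 1106 nt of the commonest CDS, the whole part from E11 on.

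The block E11, E12 and E13 was listed as a unit. The 3 exons (182, 298 and 207 nt) were present together in 20 isoforms and absent together in isoforms 29 and 45, and the introns between them were 64 and 76 bp long. Isoform 29 joined E7 to E15 over 21883 bp, which removed 687 nt (229 codons) in frame and left a CDS of 1746 nt. Isoform 45 joined E7 to E17 over 28119 bp, which removed 837 nt (279 codons) in frame and left a CDS of 1596 nt. Both kept the usual stop at 12310950. Which parts of the RNA-binding protein these codons encode could not be placed without the protein sequence.

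The smallest exon was E14, with 36 nt at 12300361 to 12300396. It was in 2 of the 22 isoforms that span it, 26 and 34, and added 12 codons to give the longest CDS of the gene, 2469 nt (823 codons). In the catalogue 190 of 30532 distinct internal exons (0.622%) were of 36 nt or fewer.

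E15, of 150 nt, was skipped in isoform 14 alone among isoforms that kept E13. Its length is a multiple of 3, and yet the CDS of isoform 14 ended at the new junction. The last codon there has 1 base from E13 and 2 bases from E17, and the frame beyond it is the usual one. The listed CDS was 2016 nt long and lost 139 codons. In isoform 45 the same acceptor at 12310682 was joined to another donor, that of E7, and the CDS read through to the usual stop.

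**Figure D3:**
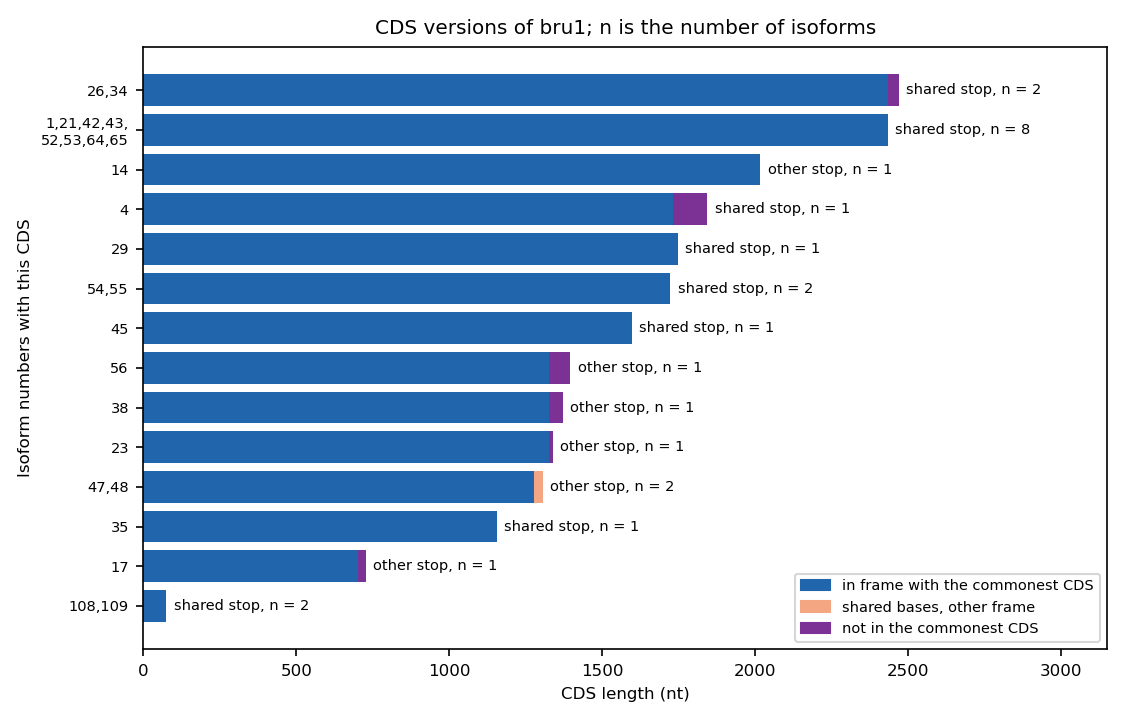
Bars give the length in nt of each of the 14 CDS versions, with isoform numbers on the y axis. Blue is read in the frame of the commonest CDS, orange is shared but read in another frame, and purple is absent from the commonest CDS. The 8 versions with the shared stop run from 75 to 2469 nt, and the versions with another stop from 726 to 2016 nt.

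Isoform 17 ended far inside the gene. It went from E2 to E3 and then to E4, a last exon of 783 nt at 12248765 to 12249547 in the intron before E5. Its CDS was 726 nt long, with 701 nt of the usual E3 part and 25 nt of its own. The 3' end lay 63891 bp before the RefSeq 3' end.

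The other 24 isoforms ended near the 3' end of the gene. The last exon, E19, ended at 12312667 in 9 isoforms, at 12312782 in 10 and between 12312797 and 12312802 in 4. These fell into 2 groups, of 9 and 14 isoforms, whose nearest ends were 115 bp apart. In 6 intron chains both ends, 12312667 and 12312782, were listed for the same chain. These chains included the commonest one, those that skip E3 or E7, the one with E14, the one with the later acceptor of E3, and the proximal one. Thus the choice between these ends was not tied to 1 splice form. Both distal isoforms ended in the later group, at 12312797 and 12312801, and the remaining ends of that kind belonged to isoforms 23 and 45. All listed ends lay at least 636 bp before the RefSeq 3' end.

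**Figure D4:**
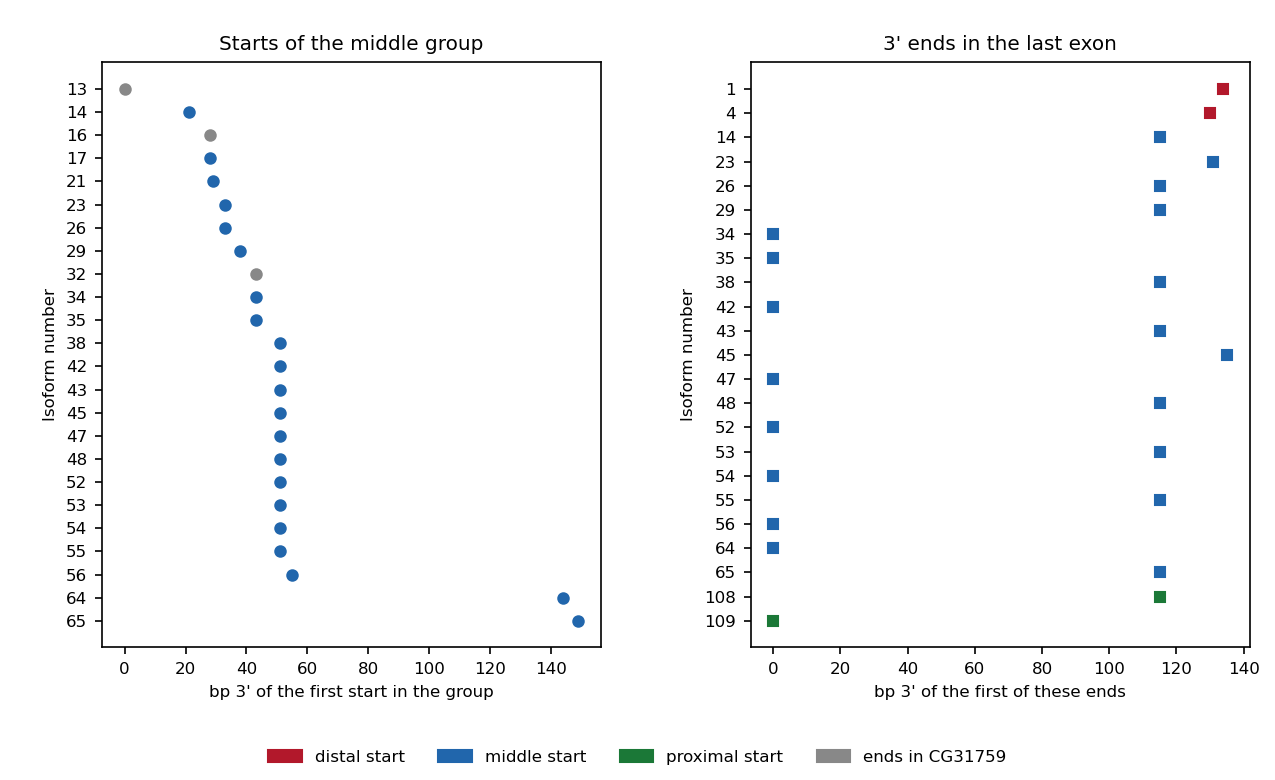
Left, the start of each transcript of the middle group in bp from the first of them, which is that of isoform 13, with transcripts that end in CG31759 in grey. Right, the 3' end of each of the 23 isoforms with the last exon in bp from 12312667, which 9 of them use; 14 others lie 115 bp or more beyond it.

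Isoform 21 had another 3' end. It read on from E17 past the donor at 12311093 and ended at 12311419, so it lacked E18 and E19. It held the commonest CDS with a 3' untranslated region of 469 nt in 1 exon.

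In the other isoforms with the usual stop, the 3' untranslated region was itself spliced. The introns of 1282 and 60 bp that flank E18 both lay after the stop, and 17 of the 18 isoforms with the usual stop had both. The stop was 233 nt before the last junction in those 17. A stop over 50 nt before the last junction marks targets of nonsense-mediated decay chiefly in mammals, while in Drosophila decay is known to act without exon junctions, so the measure is used here as a position alone. By it 23 of the 25 bru1 isoforms had such a stop, against 2470 of 36534 coding isoforms of the catalogue (6.76%). At least 2 introns after the stop were listed in 23 of the 25 bru1 isoforms, against 1094 coding isoforms of the catalogue (2.99%). In 6 isoforms, 14, 23, 38, 47, 48 and 56, the stop, taken as the listed CDS end, lay farther up, 500 to 2058 nt before the last junction. Decay itself was not measured.

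The 3 transcripts that ended in CG31759 began with the middle group of bru1. Isoform 13 was unspliced, ran from 12205779 to 12210068 and began 21 bp before the first bru1 start of the group. Isoforms 16 and 32 began at 12205807 and 12205822, positions at which bru1 isoforms also began. Both used the first-exon donor of bru1 at 12206130 and joined it to exons at 12208020 (isoform 16) or at 12207649 and then 12208020 (isoform 32). They shared no complete junction with a bru1 isoform.

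All 3 held the same CDS of 1695 nt, from 12208216 to 12209910, inside CG31759 (2L:12207709-12210110), and ended 42 bp before its RefSeq end. They began 1887 to 1930 bp 5' of the RefSeq start of CG31759, and no plus-strand transcript began at that start. The same first exon was thus spliced either to Bruno 1 exons or to the exons of the nested gene. A second gene nested in bru1, atilla, was overlapped by exons of 0 plus-strand transcripts, and the catalogue held 0 minus-strand transcripts with an exon in the bru1 span.

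Introns of bru1 were long. Of its 30 distinct introns 9 were of 20 kb or more, against 779 of 44300 in the catalogue (1.76%). At least 1 such intron was in 23 of 25 bru1 isoforms, against 1178 of all 40180 transcripts (2.93%). The longest, of 96170 bp in isoform 4, was matched or passed by 27 catalogue introns including itself. The commonest route, from E2 to E3, crossed 34737 bp and then 29810 bp to E5.

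With its 28 transcripts the locus was among 65 of 9100 loci (0.714%) with at least as many, the median being 3. It had 15 CDS versions with that of CG31759 included, and 50 loci (0.549%), itself among them, had at least 15. Its 3 start groups were less unusual: 2709 loci (29.8%) had at least 3. Its 5 groups of 3' ends, with that of CG31759, were reached by 763 loci (8.38%).

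**Figure D5:**
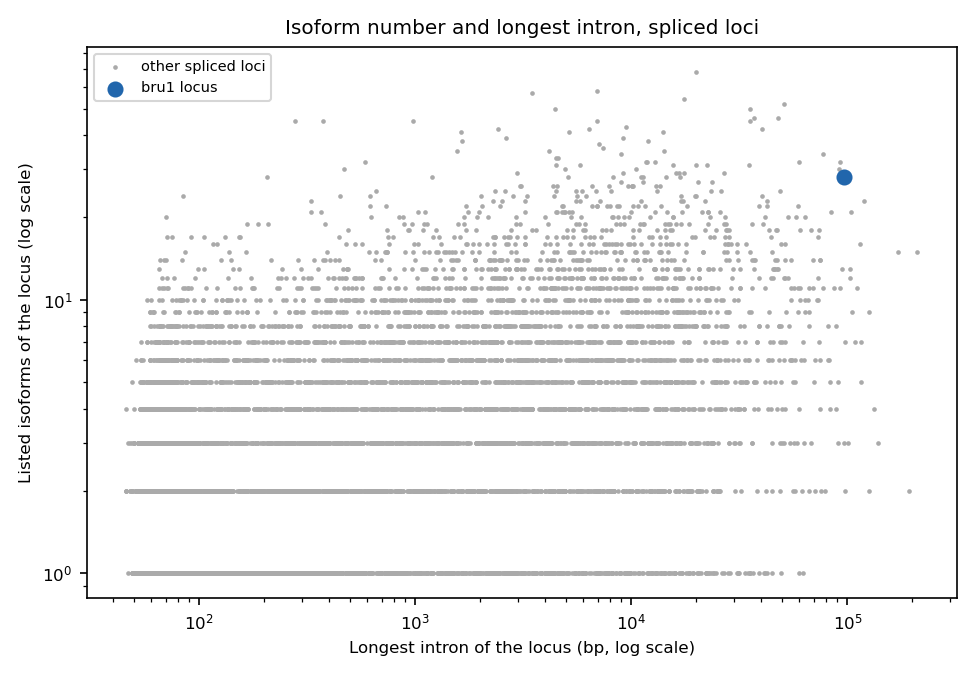
Each grey point is a spliced locus of the catalogue, with its longest intron in bp on the x axis and its number of listed isoforms on the y axis (both log scales). The bru1 locus, in blue, has 28 transcripts and a longest intron of 96170 bp, which 21 loci including itself reach.

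Loci with at least 10 isoforms (1032 of them) were ranked by likeness to bru1, as the distance between percentile ranks of isoform number, start groups, longest intron, CDS versions, 3' end groups and the share of starts past the middle of the locus. The nearest were MESK2 (distance 36.1 percentile points, 23 isoforms, longest intron 42652 bp), CG32982 (43.7), a locus without a name (44.9), sgg, a kinase gene of Wnt signalling (49.7), and RhoGAP71E (50.2). The median distance was 114.

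The paralogue bru2 was overlapped by exon by 13 transcripts of either strand, and 9 isoforms took its name. These 9 had 4 start groups, 7 CDS versions and 5 groups of 3' ends, and 0 of them started within 100 bp of the outer annotated end. Their longest intron was 22912 bp and their longest CDS 2211 nt. The other paralogue, bru3, received no name, although 5 transcripts of either strand overlapped it by exon.

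Of 14 genes for partners of Bruno and other RNA-binding proteins that act with it, 8 were named, with 3 to 32 isoforms. A gene without a name is not one without transcripts: heph was overlapped by 35 transcripts of either strand, Imp by 31, vas by 14, BicC by 6, otu by 1 and Sxl by 0. Among the named genes cup, a binding partner that blocks the cap-binding factor, had 11, the RNA helicase gene me31B had 3 and tral had 16. The cap-binding factor gene eIF4E1 had 32, and Hrb27C, a gene for an RNA-binding protein, had 28. Of 4 known targets of Bruno, CycA had 14 isoforms, while osk, grk and Sxl received no name, with 1, 1 and 0 overlapping transcripts. The list for translation in spermatogenesis held 16 genes, among them twe and CycB, which are cell-cycle genes and not translational regulators. Of these 16, 14 were named, with a median of 4.5 isoforms and a range from 2 (brat, eIF4E3 and nanos) to 39 (Syp). The others, Rbfox1 and tut, were overlapped by 11 and 0 transcripts of either strand. For brat, nanos and eIF4E3 such transcripts numbered 8, 9 and 2, so low counts can depend on the naming rule. All named genes had a median of 3.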

How the data were processed

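Iso-Seq libraries of 2 control and 2 knockdown samples were merged by the authors into 1 annotation. The deposited file's name gives the order of steps as TAMA merging, correction, filtering, tappAS filtering and CDS. Its values are other than counts: deposited positions and reading frames. The submitters' processing notes list BDGP6 and dm6. The aligner is not given in the sources used here. Merging and filtering set which isoforms are seen: numbers at the locus run to 109, of which 28 (25.7%) are listed, against 35.2% over all loci. Depth is unknown.

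Exons, introns, CDS, starts and 3' ends were compared with Python 3.11.15 and numpy 2.4.6. Starts within 100 bp and 3' ends within 50 bp were joined. An alternative exon lies inside an intron of another isoform. Gene names came from RefSeq spans (Release 6 plus ISO1 MT): a gene took the strand of at least 80% of the isoforms that matched either end of its span to 200 bp, and an isoform needed 50% of its span in the gene. On 300 simulated loci 7 measures were recovered in all. They were isoform number, start groups, CDS versions, 3' end groups, longest intron, alternative exons and the distance from stop to last junction. Gene naming, the comparison of frames, the check of stop codons and the ranking by likeness were not simulated. No test was run. No sequence was used here.

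Named genes were bru1, its paralogues, lists of partners, targets and genes for translation in spermatogenesis, and the 5 loci most like it. The members and lists were chosen with earlier results of these data known.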

Additional observations from a re-analysis of the deposited data

How the results depend on the processing

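No paired analysis was possible because no line of the catalogue names a sample, and leaving out a replicate could not be run for the same reason. Over 8 results and 29 alternatives, 25 values stayed within 1.5 times the reported one. The 4 others were as follows. With a gap of 20 bp the starts made 5 groups in place of 3. With any start over 1 kb from the outer end counted as proximal, 23 isoforms were proximal in place of 2, since that takes in the middle start. With CDS versions required in at least 2 isoforms, 5 were left of 14. With a distance of 300 nt, chosen after seeing the data, 6 isoforms had a stop that far before the last junction, in place of 23 at 50 nt. Counts with or without transcripts that end in CG31759 were also added after seeing the data. Without read numbers, an isoform listed from few reads cannot be told apart from an abundant one. This holds also for what was listed in 1 isoform alone, such as E4, E8, E9, E10, the end at 12311419 and 9 of the 14 CDS versions.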
